A study of Mus musculus with 32 samples.

Results

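The Wnt ligands Wnt3, Wnt5a and Wnt7a, the Wnt receptor gene Ror2, the beta-catenin gene Ctnnb1, the feedback inhibitor gene Axin2 and the 4 TCF/LEF transcription factor genes Lef1, Tcf7, Tcf7l1 and Tcf7l2 were followed across 32 ATAC-seq libraries of mouse limb bud. ATAC-seq uses the Tn5 transposase to cut DNA that is not covered by nucleosomes, and each deposited list holds the summits of the peaks called in 1 library with the −log10 of the q-value of each. Summits of all libraries were gathered into sites of 500 bp. A site was assigned to a gene when it lay in the gene body or within 50 kb of it and its nearest protein-coding start belonged to that gene. Of 101292 sites listed in at least 2 libraries, 147 belonged to these 10 genes, and 19 of the 147 were promoter sites, within 1 kb of a start. In the lists themselves 1719 of 1234971 summits lay near these genes.

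Wnt proteins are secreted and bind receptors on nearby cells. In the canonical branch the signal stabilises beta-catenin, which enters the nucleus and joins TCF/LEF factors on DNA to activate target genes such as Axin2, while in the absence of signal the same factors hold targets down. Ror2 is a receptor for Wnt5a in the non-canonical branch, which orients cells during outgrowth. In the limb bud, Wnt3 acts in the ectoderm and the apical ridge, Wnt7a marks dorsal ectoderm, Wnt5a is made by distal mesenchyme, and Lef1 and Tcf7 act in mesenchyme.

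The libraries fell into 12 groups. E10.5 HL EYFP+ (3 libraries) and E10.5 FL EYFP+ (3) were hindlimb and forelimb cells that were positive for the Etv2-EYFP transgene, a reporter driven by an Etv2 promoter fragment, and negative for the endothelial and blood markers CD31, TIE2 and CD45. Both came from the same 3 pools of embryos, and the labels call them GFP_pos. E10.5 Posterior, E10.5 Anterior and E9.5 HL had 1 library each. By the study's description, the first held Shh-EGFP+ cells of the posterior hindlimb and the second cells of the anterior hindlimb of Shh-EGFP embryos. E9.5 HL was wild-type hindlimb. E10.25 WT (2 libraries), E10.25 CKO (5) and E10.5 CKO (2) were posterior hindlimb cells by the labels or the study's description, and in CKO embryos Etv2 was deleted in the HoxB6-Cre domain (HoxB6-Cre Tg/+; Etv2 fl/-) and the other Etv2 allele was null in all cells. The study describes the E10.5 CKO cells as unsorted. In the overexpression experiment, Etv2OE embryos carried HoxB6-Cre, a doxycycline-inducible HA-Etv2 and a Cre-activated rtTA with EGFP. Control embryos were littermates that lacked a transgene. Doxycycline was given to the pregnant dams at E9.5 and E10.5, so it was not given to Etv2OE embryos alone. Anterior and posterior hindlimb of the same embryo gave 4 pairs of control libraries and 3 pairs of Etv2OE libraries. The labels give these embryos as E10.5, whereas the study's methods place the harvest a day after the last dose. HA-ETV2 was not present in every cell, so changes in a fraction of the cells are diluted.

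List lengths ran from 13763 summits in E10.5 Anterior to 54676 in a control posterior library. E10.25 CKO replicates 2 and 4 had 15626 and 19734 summits, which left many sites out of them. Ranks were therefore compared at equal list lengths, the best 30000 summits in the overexpression experiment and the best 15000 in the cell populations, where E10.5 Anterior was left out of the fit. Rank 1 is the summit with the highest value, and the rank score runs from 1 for the best rank to 0 for a site that is not listed. Libraries of the same group shared 0.479 to 0.767 of their sites (Jaccard index) and no pair was identical. Values between groups overlapped these, with 0.719 for E10.25 WT replicate 1 and E10.25 CKO replicate 3. E10.5 HL EYFP+ replicate 3 shared 0.68 with the forelimb library of its pool, and 0.502 and 0.557 with the other hindlimb EYFP+ libraries. Separate embryos are labelled in the overexpression experiment and separate pools in the EYFP+ groups, while elsewhere p-values may measure technical spread in part. A promoter summit of Etv2 was listed in 1 of 3 E10.5 HL EYFP+, 1 of 3 Etv2OE anterior and 2 of 3 Etv2OE posterior libraries and in no other group, and it is no check of the deletion or of the transgene. Of 5 limb mesenchyme promoters, Prrx1 was listed in 30 libraries, Msx1 in 29, Tbx4 in 27, Pitx1 in 25 and Tbx5 in 2. Prrx1 was listed in every group except E10.5 Anterior, though in only 4 of 5 E10.25 CKO libraries. The endothelial promoters of Cdh5, Pecam1 and Tie1 and the blood promoters of Ptprc and Spi1 were listed in no library, while Kdr was listed in all 32, Flt1 in 24, Tal1 in 14, Tek in 4 and Gata1 in 1. Of 7 ectoderm and apical ridge promoters, 0 to 5 were listed per library, and of 3 muscle progenitor promoters 1 to 3. Among the latter, Met was listed in 32 libraries, Pax3 in 13 and Lbx1 in 9. Summits near the 10 genes were 0.0768% to 0.18% of a list, lowest in E10.25 CKO replicate 2 and highest in E10.5 FL EYFP+ replicate 3.

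Sites are named here by the gene and the distance in kb from the nearest annotated start of that gene, with a plus sign downstream in the direction of transcription. The start can be an internal one, since Tcf7l2 has 9 annotated starts and most of the other genes have 2. The 200 bp around the centre were searched on both strands for 5 words, CTTTGA for TCF/LEF factors, AGGAAGT or AGGAAAT for ETV2, TAATTA for homeobox factors, CAGCTG for E-box factors and AGATAA or TGATAA for GATA factors. CTTTGA and TGATAA can overlap. The sequences below belong to the sites on which the results turn, from the plus strand of mm10 (GRCm38), and capitals mark the words named with each, on either strand.

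The 2 Axin2 sites hold 3 TCF/LEF words each, marked by capitals, and were listed in 30 or more libraries. The first is in an intron of Axin2 (chr11:108947464-108947663) and the second between genes (chr11:108961746-108961945).
Axin2 +24.4 kb: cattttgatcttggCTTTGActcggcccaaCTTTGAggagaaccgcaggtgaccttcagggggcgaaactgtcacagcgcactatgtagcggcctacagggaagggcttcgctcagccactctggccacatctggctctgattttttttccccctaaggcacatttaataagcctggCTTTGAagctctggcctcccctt
Axin2 +38.7 kb: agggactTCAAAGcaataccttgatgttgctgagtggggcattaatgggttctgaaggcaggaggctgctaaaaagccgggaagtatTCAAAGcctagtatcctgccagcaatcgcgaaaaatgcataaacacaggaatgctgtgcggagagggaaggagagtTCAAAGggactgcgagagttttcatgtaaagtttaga

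The next 2 lie in introns of Ror2 (chr13:53201816-53202015 and chr13:53193860-53194059). Their ranks leaned oppositely along the anterior-posterior axis in controls, where Ror2 +83.6 kb passed the test, though not in every alternative, and Ror2 +91.6 kb did not. Capitals mark the ETV2 word.
Ror2 +83.6 kb: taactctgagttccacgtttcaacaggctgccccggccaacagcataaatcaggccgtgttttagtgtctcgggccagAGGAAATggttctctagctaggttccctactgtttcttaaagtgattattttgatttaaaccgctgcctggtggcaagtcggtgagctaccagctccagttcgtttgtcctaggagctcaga
Ror2 +91.6 kb: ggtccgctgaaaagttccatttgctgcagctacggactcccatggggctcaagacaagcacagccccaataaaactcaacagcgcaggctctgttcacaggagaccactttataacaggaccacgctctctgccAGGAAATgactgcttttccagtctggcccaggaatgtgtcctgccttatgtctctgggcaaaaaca

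The Lef1 sites differed between anterior and posterior controls (intron, chr3:131182261-131182460, capitals mark the homeobox word) and between experiments (between genes, chr3:131089762-131089961, capitals mark the ETV2 and TCF/LEF words).
Lef1 +69.6 kb: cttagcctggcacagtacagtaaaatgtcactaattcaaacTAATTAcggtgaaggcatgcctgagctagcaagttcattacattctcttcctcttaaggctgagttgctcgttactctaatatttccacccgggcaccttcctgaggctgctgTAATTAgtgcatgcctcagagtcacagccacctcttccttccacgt
Lef1 -20.6 kb: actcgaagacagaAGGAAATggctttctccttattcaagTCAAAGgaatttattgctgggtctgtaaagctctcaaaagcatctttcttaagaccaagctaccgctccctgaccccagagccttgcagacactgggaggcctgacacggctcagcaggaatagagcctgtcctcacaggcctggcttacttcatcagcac

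The last 2 are the best-ranked site of the 10 genes, in an intron of Tcf7l1 (chr6:72711825-72712024, capitals mark the GATA and E-box words), and the site past the 3' end of Wnt5a that passed the test between sorted and CKO hindlimb cells (chr14:28542188-28542387, which holds none of the words).
Tcf7l1 +77.0 kb: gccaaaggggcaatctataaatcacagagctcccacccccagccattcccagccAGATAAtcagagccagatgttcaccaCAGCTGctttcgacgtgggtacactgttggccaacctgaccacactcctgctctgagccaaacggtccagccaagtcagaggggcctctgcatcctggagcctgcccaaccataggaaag
Wnt5a +30.9 kb: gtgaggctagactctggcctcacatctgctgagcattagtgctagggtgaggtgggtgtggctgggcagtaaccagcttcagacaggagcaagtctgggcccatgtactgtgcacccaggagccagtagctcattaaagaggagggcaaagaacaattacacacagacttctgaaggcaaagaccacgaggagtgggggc

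The 10 genes differed widely in how strongly and how often they were marked. Tcf7l1 came first, with a median over libraries of 1109.5 for the best rank of any of its sites, followed by Tcf7l2 at 3134.5, Axin2 at 4180 and Ror2 at 5331. Wnt7a (9664) and Wnt5a (10523) came next, and Lef1 (18102), Ctnnb1 (19980), Tcf7 (24272) and Wnt3 (26713) came last. The ranges of neighbours in this order overlapped, from 183 to 6002 for Tcf7l1 and from 497 to 12916 for Tcf7l2. The longest genes, Tcf7l2 and Ror2, also had the most sites, 34 and 27, so the best of many sites is not compared per length here. Of the 128 distal sites, 10 (7.8%) were listed in 30 or more libraries, against 3.3% of all distal sites. Of the 19 promoter sites, 2 were, against 43.5% of all promoter sites. Depth is unknown, and a missing summit says only that no peak was called there.

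**Figure D1:**
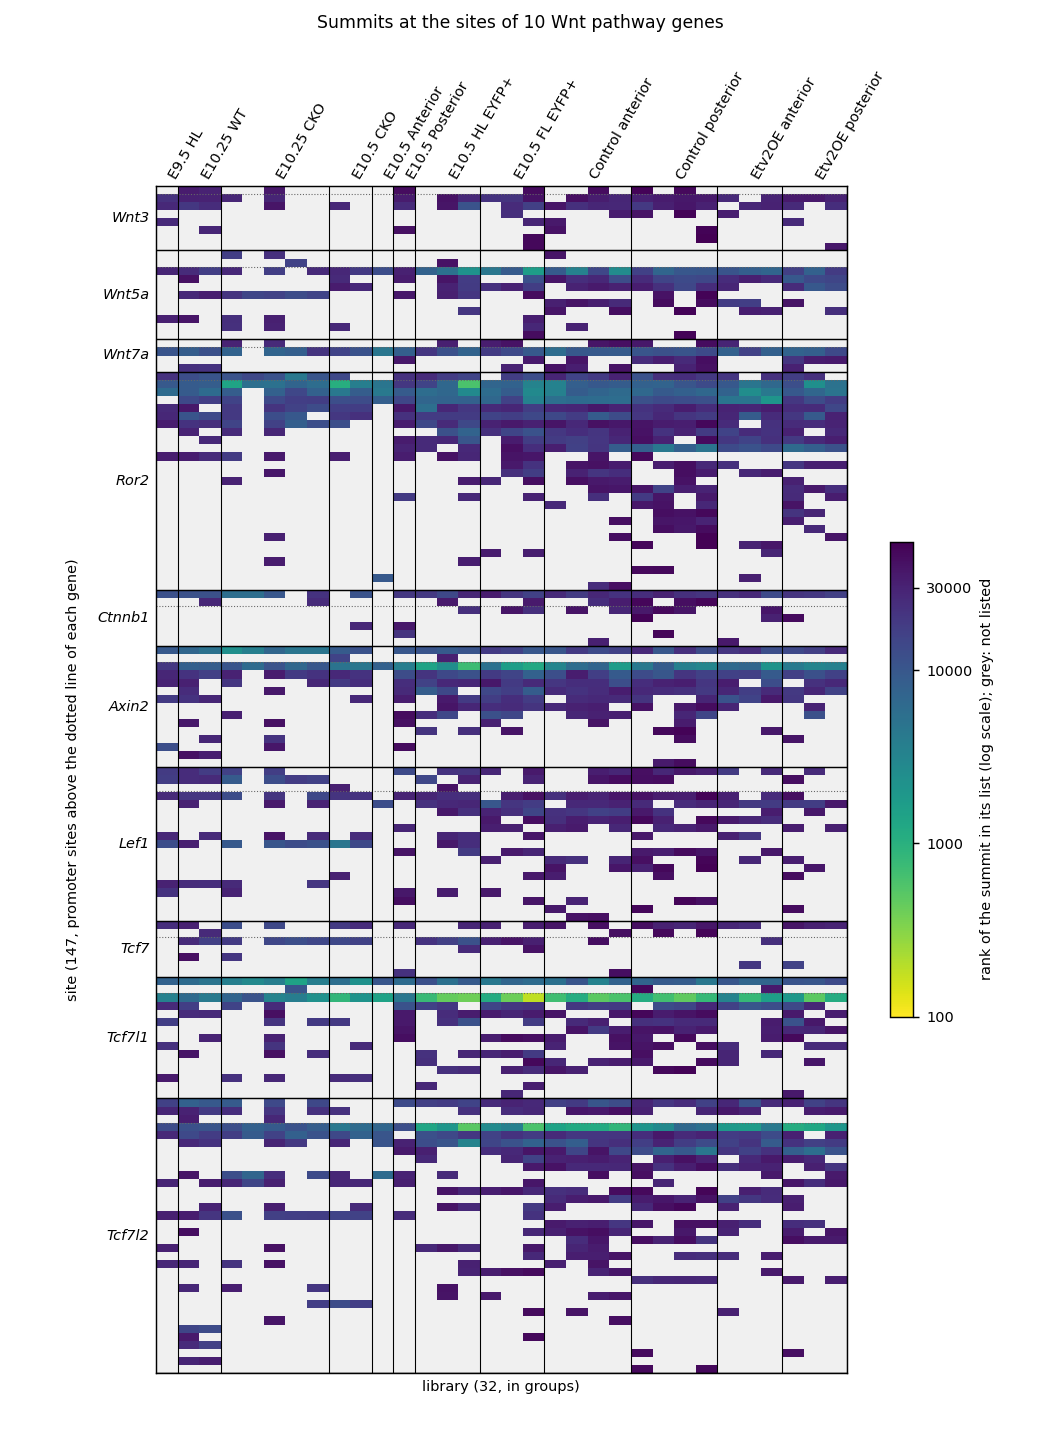
Each row is 1 of the 147 sites and each column 1 of the 32 libraries, coloured by the rank of the summit on a log scale, with grey where the site was not listed. Rows are grouped by gene with promoter sites above the dotted line. The bright rows of Tcf7l1, Tcf7l2, Axin2 and Ror2 ran through nearly all libraries, while most rows were grey in most of them.

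**Figure D2:**
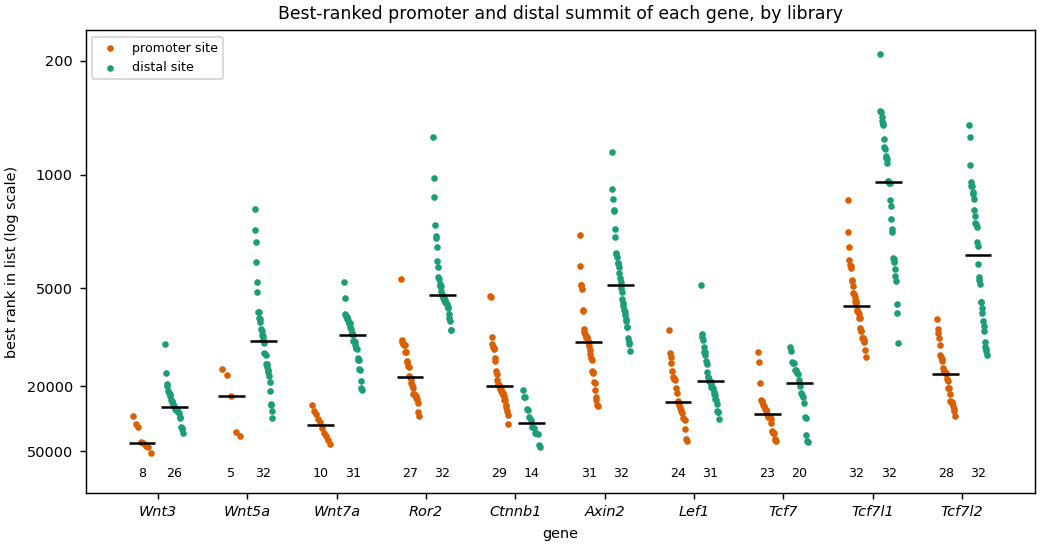
Points are the best rank of any promoter site (orange) and any distal site (green) of each gene in each library, on a log scale with better ranks upward, bars are medians, and the numbers are libraries with such a site. Distal sites ranked ahead of promoter sites for 9 of the genes by the median, and Ctnnb1 was the other way round. There were 128 distal and 19 promoter sites, which by number favours the best distal rank. The medians of the 2 kinds are also over different libraries.

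Among the ligands, summits at promoters were rare. The Wnt3 promoter site was listed in 8 of 32 libraries, never better than rank 30325, and the Wnt7a promoter site in 10, never better than 26026. The 2 Wnt5a promoter sites were listed in 3 and 2 libraries. Wnt3 and Wnt7a are ectodermal genes, and of the ectoderm and apical ridge promoters Krt8 was listed in 2 libraries, Fgf8 in 3, Trp63 in 4, Krt18 in 7, Cdh1 in 14, Epcam in 17 and Sp8 in 23. Whether the number of ectodermal cells sets these values was not tested, and in such bulk samples fewer cells of a type and weaker opening per cell cannot be told apart.

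Distal sites of the ligands were far more common. The Wnt7a -29.5 kb site, which lies upstream in an exon of the transcript 4930471M09Rik, was listed in 31 libraries at ranks 4580 to 21160, and only E10.25 CKO replicate 2 lacked it. The Wnt5a +30.9 kb site was listed in 30 libraries at 1629 to 31139. The best-listed Wnt3 site, +36.1 kb in its intron, was found in 23 libraries at 21231 to 42218.

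Ror2 had a dense set of intronic sites, 23 of its 27. Ror2 +102.1 kb was listed in all 32 libraries at 591 to 19772, and Ror2 -23.7 kb upstream, chosen after its values were seen, in 31 at 2468 to 14223. Its promoter was listed in 27 libraries at 4384 to 30244.

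Ctnnb1, whose protein every cell uses, was the only gene whose promoter sites ranked ahead of its distal sites by the median. These medians are over 29 libraries for promoter and 14 for distal sites. The +0.0 kb site in the UTR was listed in 29 libraries at 5608 to 33944, and its most frequent distal site, in an intron of Ulk4 at +68.5 kb, in 9.

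Axin2 +24.4 kb was listed in all 32 libraries. Its rank was 19609 in E9.5 HL, 7950 and 8632 in E10.25 WT and 6115 to 11027 in E10.25 CKO. It was 4980 and 4576 in E10.5 CKO, and 3700 in the posterior and 7714 in the anterior E10.5 library. The sorted cells gave 1419, 2418 and 729 in hindlimb and 5276, 1642 and 1231 in forelimb, and the 14 libraries of the overexpression experiment 1682 to 8661. The worst rank was thus that of E9.5 HL and the best that of a sorted hindlimb library, with no test of stage, since E9.5 HL is a single library. The Axin2 promoter site +0.2 kb had its best ranks at E10.25, with 6891 and 5062 in WT and 2368 to 6798 in CKO. It ranked 9271 to 10742 in E10.5 HL EYFP+ and 9927 to 26327 in control posterior. Axin2 +38.7 kb, chosen after its values were seen, was listed in 30 libraries at 7802 to 33894.

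TCF/LEF words were found in 23 of 128 distal sites (17.97%), against 15.05% of all distal sites. Sites with 3 or more TCF/LEF words were 0.12% of all distal sites (99 of 82310), and 2 of the 128, both of Axin2, were among them. This count was made after the values were seen. The ETV2 words were found in 20 distal sites (15.62%, against 13.65% of all) and in 0 of 19 promoter sites (7.09% of all). The homeobox word was in 14.06% of distal sites against 9.96%, the E-box in 14.06% against 17.08%, and the GATA words in 14.06% against 14.53%. The same shares in promoter sites were 15.79% for TCF/LEF against 6.66%, 0 for homeobox against 1.39%, 5.26% for the E-box against 12.33% and 10.53% for GATA against 4.48%, all from 19 sites.

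Of the TCF/LEF genes, Tcf7l1, which codes for a factor known mainly as a repressor, had the site with the best rank of the 10 genes. Tcf7l1 +77.0 kb was listed in all 32 libraries at 183 to 10839. Its ranks were 771, 441 and 406 in E10.5 HL EYFP+, 1123, 411 and 183 in E10.5 FL EYFP+, 494 to 1093 in control anterior and 469 to 1096 in control posterior. They were 3460 in E9.5 HL, 6260 and 4211 in E10.25 WT and 2259 to 10839 in E10.25 CKO. Every EYFP+ and control library thus ranked the site ahead of every E9.5 and E10.25 library, whereas E10.5 Posterior, also sorted, ranked it 4537. That statement leaves out the E10.5 CKO, E10.5 Anterior and Etv2OE libraries. Mean rank scores in Etv2OE were 0.9375 in anterior and 0.9612 in posterior. Stage, cell sort and experiment cannot be told apart in these ranks. The Tcf7l1 promoter -0.2 kb was listed in all 32 libraries at 1427 to 13247.

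Tcf7l2 +72.8 kb, in an intron, was also listed in all 32 at 497 to 12916, and the first promoter of Tcf7l2 (-0.1 kb) in 27. Lef1 and Tcf7, which code for factors that chiefly activate targets, had no site in 30 or more libraries. The Lef1 site with the most libraries, -4.3 kb, was listed in 25 at 12633 to 51147, and the Lef1 promoter site -0.3 kb, at an internal start, in 19. The Tcf7 promoter -0.3 kb was listed in 21 libraries at 12308 to 43605.

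Anterior and posterior control hindlimb were compared to ask whether these genes carry regional differences. Over all 47227 sites tested by limma at an adjusted p (Benjamini-Hochberg) of 0.05, 1.01% were higher in anterior and 1.15% in posterior. Of 66 sites near the 10 genes, 2 were higher in anterior and 0 in posterior, and 9 (13.6%) had an unadjusted p under 0.05, against 12.4% of all sites. Over whole lists, which are longer on the posterior side, 3 other sites near these genes were called and all 3 were higher in posterior, Lef1 -37.7 kb (-0.283, limma adjusted p = 0.002), Tcf7 -0.3 kb (-0.315, limma adjusted p = 0.0243) and Tcf7l2 -18.5 kb (-0.504, limma adjusted p = 9.46e-05).

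Ror2 +83.6 kb ranked 5501, 6091, 5884 and 5746 in the 4 control anterior libraries and 11495, 13462, 12320 and 11800 in the 4 control posterior libraries. All anterior libraries ranked it ahead of all posterior ones. The rank score was 0.8065 ± 0.0083 (SD, n = 4) against 0.591 ± 0.0288, a difference of 0.215 (SE 0.0462, limma adjusted p = 0.0335). The difference stayed between 0.202 and 0.224 without any 1 library, with limma adjusted p from 0.0558 to 0.0966, so each of the 8 libraries was needed for the call. With the embryo as a block it was 0.215 with limma adjusted p = 0.0981, and over whole lists 0.098 with limma adjusted p = 0.127.

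The same site in the Etv2OE embryos, which are other animals, ranked 4716, 4762 and 2048 in anterior and 19949, 12701 and 18084 in posterior. This comparison was added after the data were seen. The rank score differed by 0.436 (SE 0.0534, limma adjusted p = 0.00171), and the groups did not overlap. Over all sites 0.824% were higher and 0.91% lower in Etv2OE anterior than posterior, and 2 and 0 of the 66 sites near the 10 genes. The other one was Tcf7l2 +45.7 kb, which ranked 18120, 19266 and 12950 in Etv2OE anterior and 30657 and 30778 in posterior replicates 7 and 10, and was not listed in replicate 9 (difference of rank score 0.441, SE 0.0713, limma adjusted p = 0.00901). In the controls that site differed by 0.188 with limma adjusted p = 0.185. With the embryo as a block, limma called 0 sites of all those tested between Etv2OE anterior and posterior, and adjusted p was 0.251 at Ror2 +83.6 kb and 0.238 at Tcf7l2 +45.7 kb. That blocked fit thus says nothing about these sites in particular.

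Ror2 +91.6 kb, chosen after its values were seen, leaned the other way. It ranked 32110, 16071, 20941 and 8461 in control anterior and 8205, 4378, 7904 and 4838 in control posterior. The difference of rank score was -0.418 (SE 0.116, limma adjusted p = 0.105), which did not pass. Without control anterior replicate 4 it passed (-0.5335, limma adjusted p = 0.0141). Ror2 +131.5 kb also passed in that fit, but was higher in anterior (0.385, limma adjusted p = 0.0381). In Etv2OE, Ror2 +91.6 kb ranked 13229, 11324 and 13524 in anterior and 6221, 8045 and 11404 in posterior. The control groups did not overlap, 8461 being the best anterior rank and 8205 the worst posterior one, while the Etv2OE groups overlapped. The site was not listed in any library of E9.5 HL, E10.25 WT, E10.25 CKO, E10.5 CKO or E10.5 Anterior.

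Lef1 +69.6 kb ranked 22558, 20058, 16424 and 17506 in control anterior. In control posterior it was listed at 35700 and 21765 in replicates 1 and 2 and not in the others. The difference of rank score was 0.294 (SE 0.0627, limma adjusted p = 0.0328). The call held in 2 of the 8 fits that left out a library, with limma adjusted p from 0.00263 to 0.0976 over the 8, namely those without control anterior replicate 1 or control posterior replicate 2. It was lost with the embryo as a block (limma adjusted p = 0.232), with only these groups in the fit (0.119), over whole lists (0.114) and at 20000 summits, where the difference was 0.0759 (limma adjusted p = 0.521). In Etv2OE the site was listed in 1 anterior library at 33459 and 1 posterior library at 36396.

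Tcf7l2 +67.5 kb and -18.5 kb, both intronic, were posterior in direction. Tcf7l2 +67.5 kb, chosen after its values were seen, ranked 12940, 7105, 9373 and 4674 in control posterior and 35497, 14871, 39207 and 14420 in control anterior, with no overlap and limma adjusted p = 0.0908, which became 0.0477 without control anterior replicate 2 and 0.0462 without replicate 4. In Etv2OE it ranked 8137, 5671 and 11003 in posterior and 20917, 16072 and 22308 in anterior. Tcf7l2 -18.5 kb was listed in all 4 control posterior libraries at 23532, 26956, 27622 and 27148 and in no control anterior library (limma adjusted p = 0.0715). Of 50 sites counted near the 10 genes it was the only one listed in all libraries of 1 side and none of the other, where 1.13% of all sites were such for anterior and 1.35% for posterior. In Etv2OE it was listed in 2 of 3 posterior libraries and 0 of 3 anterior ones.

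**Figure D3:**
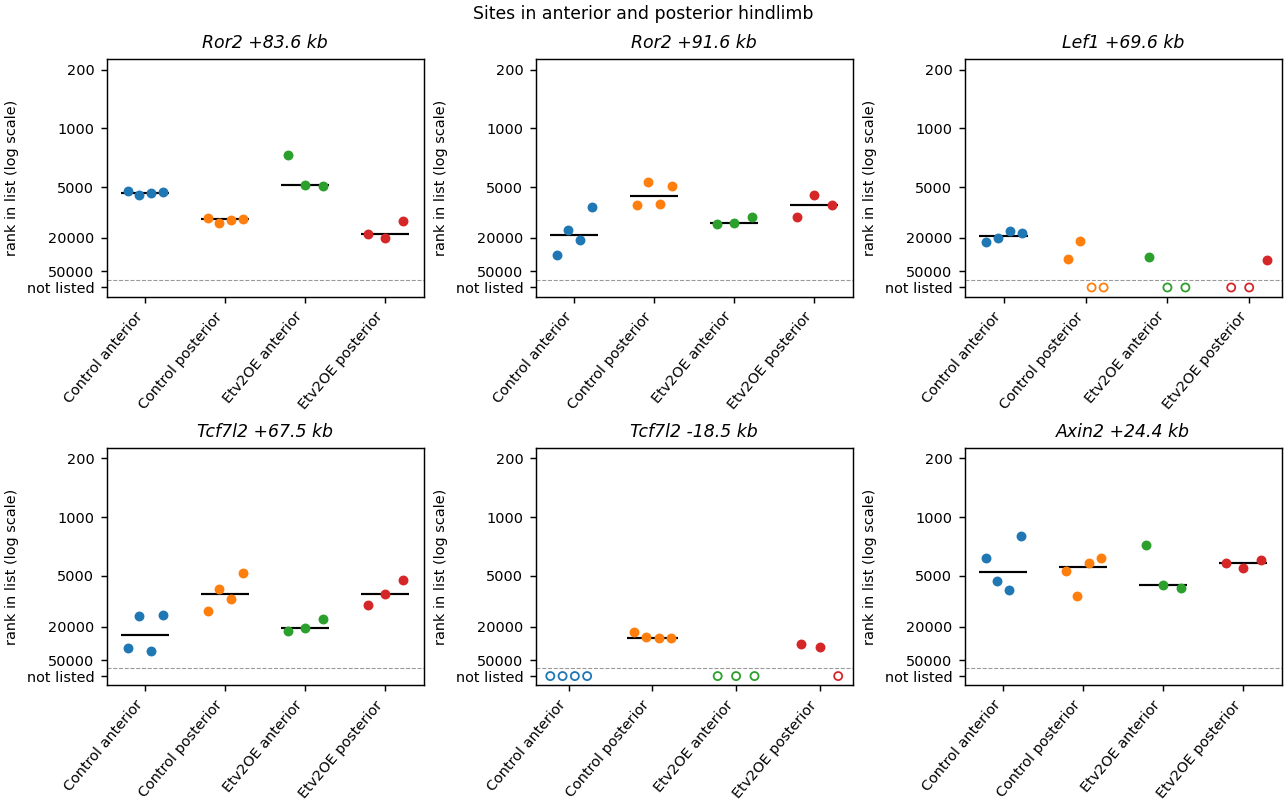
Each point is a library and the vertical axis is the rank of the site in its list on a log scale, better ranks upward, with open circles below the dashed line for libraries that did not list it and bars for medians of fully listed groups. Ror2 +83.6 kb sat at 5501 to 6091 in control anterior and 11495 to 13462 in control posterior, and Axin2 +24.4 kb is shown as a site whose 4 groups overlapped.

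Etv2OE was compared with control on each side to ask whether added ETV2 altered these genes. On the anterior side 0.0402% of 47227 sites were higher and 0.0191% lower in Etv2OE by limma, and on the posterior side 0.0191% and 0.00847%. None of the 66 sites near the 10 genes passed on either side, and 4 (6.06%) on each had an unadjusted p under 0.05, against 6.44% of all sites on the anterior and 6.11% on the posterior side. The difference of the effect between sides called 0.0127% and 0.00847% of all sites and 0 of the 66, of which 5 (7.58%) had an unadjusted p under 0.05, against 4.93% of all sites. Ror2 +83.6 kb passed on the posterior side once Etv2OE posterior replicate 9 was left out (-0.225, limma adjusted p = 0.0382), against -0.155 with it (limma adjusted p = 0.575). Wnt5a -36.6 kb passed on the anterior side once Etv2OE anterior replicate 10 was left out (0.385, limma adjusted p = 0.00284), and so did its difference of effect between sides (limma adjusted p = 0.0394). Anterior Etv2OE and control shared no library with the posterior comparison, though sides of the same embryo did.

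By the rule of presence in all libraries of a group and none of the other, at 30000 summits, 0.274% of all sites were found in Etv2OE anterior only and 0.366% in control anterior only, against 0 and 1 of 49. The 1 was Lef1 +69.6 kb, whose difference of rank score was -0.362 (SE 0.0677, limma adjusted p = 0.124). On the posterior side the shares were 0.352% and 0.421%, against 1 and 1 of 48. Ror2 +80.0 kb was found in Etv2OE posterior at 25345, 24766 and 29434. In the control posterior libraries it ranked 39546, 34052, 32121 and 48093, beyond the length compared, so it was listed in all of them. Tcf7l2 -18.5 kb was found in control posterior only at this length, and 2 of 3 Etv2OE posterior libraries listed it beyond that length.

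In sorted cells, hindlimb was compared with forelimb to look for limb type differences. Over 27640 sites limma called 0.42% higher in hindlimb and 0.622% in forelimb. Of 31 sites near the 10 genes 0 were called, and 0 had an unadjusted p under 0.05, against 8.8% of all sites. This fit did not include the pool, so differences between pools add to its spread. With the pool as a block limma called 0 of all sites, so that fit says nothing about these genes. Of 18 sites counted, 0 were listed in all libraries of 1 limb and none of the other, where 1.19% of all sites were such for hindlimb and 0.959% for forelimb.

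E10.5 HL EYFP+ was compared with E10.5 CKO, which differ in Etv2 but also in sorting, mouse line and the part of the hindlimb named. The labels give the CKO cells as posterior hindlimb and the EYFP+ cells as hindlimb with no side. Over 27640 sites 2.31% were higher in EYFP+ and 4.93% in CKO by limma, and of 31 sites near the 10 genes 1 and 0, with 5 (16.1%) at an unadjusted p under 0.05 against 16.9% of all sites. At 25000 summits 6 were called, 3 higher and 3 lower in EYFP+. The 1 was Wnt5a +30.9 kb, which ranked 7638, 5235 and 2205 in E10.5 HL EYFP+ and 27291 and 18701 in E10.5 CKO, beyond the 15000 summits compared. The difference of rank score was 0.665 (SE 0.118, limma adjusted p = 0.0038), and it stayed called without each of the 5 libraries in turn (limma adjusted p from 0.0027 to 0.0335). It was lost with only these groups in the fit (limma adjusted p = 0.0686), over whole lists (0.0513), at 10000 summits (0.166) and in the fit that blocked on replicate numbers 1 and 2 (0.173). The blocked fit called 0 of all sites, so it says nothing about this site in particular. In the forelimb EYFP+ cells the ranks were 4545, 8877 and 1629. The whole E10.25 and E9.5 set ranked it between 17077 and 28284, or did not list it in CKO replicates 2 and 4. The control and Etv2OE anterior libraries ranked it 2606 to 14487, and the posterior ones 7006 to 18513. E10.5 Posterior, from sorted Shh-EGFP+ cells, ranked it 31139. Genotype, sort, mouse line and part of the hindlimb cannot be told apart in this comparison.

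By presence, 5.03% of 18069 sites were in all EYFP+ and no CKO library and 7.81% the reverse, against 2 and 1 of 20 near these genes. Wnt5a +30.9 kb was 1 of the 2. The other, Tcf7l2 +7.5 kb, ranked 12368, 10417 and 3260 in E10.5 HL EYFP+, 27684 in 1 E10.5 CKO library and was not listed in the other (limma adjusted p = 0.168). At 25000 summits limma called this site higher in EYFP+ (0.653, limma adjusted p = 0.00462). Lef1 -20.6 kb was the reverse, with 4774 and 13970 in CKO. It was listed in EYFP+ replicates 2 and 3 at 36869 and 23954. The site was also listed in E9.5 HL at 12297 and in 4 of 5 E10.25 CKO libraries at 9481 to 12774. In E10.25 WT it was listed at 31316 in replicate 1 and not in the other. It was absent from all 14 libraries of the overexpression experiment, all 3 E10.5 FL EYFP+ libraries and the single posterior and anterior E10.5 libraries. For the difference between EYFP+ and CKO at Lef1 -20.6 kb limma adjusted p was 0.191. Without E10.5 CKO replicate 2 the difference of rank score was -0.682. At 25000 summits limma called the site lower in EYFP+ than in CKO (-0.611, limma adjusted p = 0.00163). At that length it was also called lower in E10.25 WT than in E10.25 CKO (-0.583, limma adjusted p = 0.00354), without CKO replicates 2 and 4. Without EYFP+ replicate 1, Ror2 -34.9 kb passed (limma adjusted p = 0.0375), and without EYFP+ replicate 2, Tcf7l1 -0.2 kb (0.013).

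**Figure D4:**
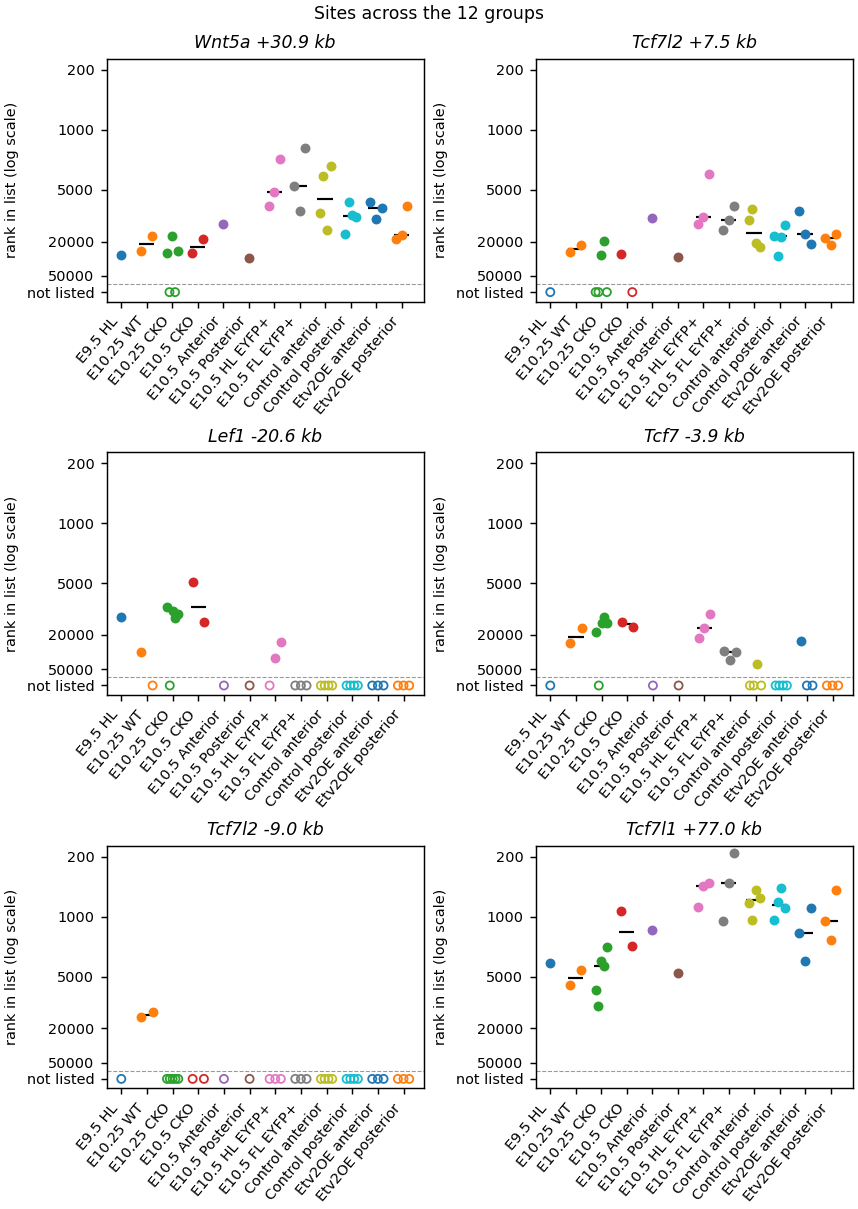
Each point is a library of 1 of the 12 groups, with the rank of the site on a log scale (better ranks upward), open circles for libraries that did not list it, and bars for medians of fully listed groups. Wnt5a +30.9 kb ranked 2205 to 7638 in E10.5 HL EYFP+ and 18701 and 27291 in E10.5 CKO, and Tcf7l2 -9.0 kb was listed in both E10.25 WT libraries and in no other.

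E10.25 WT was compared with E10.25 CKO for the effect of Etv2 loss on posterior hindlimb. limma called 1.52% of 27640 sites higher and 0.369% lower in WT, and 0 of 31 near these genes, with 2 (6.45%) at an unadjusted p under 0.05 against 9.82% of all sites. The promoter site Tcf7l2 -0.1 kb ranked 7715 and 9354 in WT and 8903, 13576 and 14000 in CKO replicates 1, 3 and 5, with CKO replicates 2 and 4 not listing it. Its limma adjusted p was 0.134, and 0.000513 without CKO replicate 1. The dates in the sample descriptions differ between the genotypes, so date and genotype cannot be told apart. By presence, 3.51% of 18846 sites were in both WT and no CKO library and 1.34% the reverse, against 1 and 0 of 23. The 1 was Tcf7l2 -9.0 kb, upstream of the gene, at ranks 14868 and 12904 in WT. At 25000 summits, in a fit without CKO replicates 2 and 4, limma called it higher in WT (0.445, limma adjusted p = 1.92e-05). Without the short lists of CKO replicates 2 and 4, 2 sites met the rule.

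No other library listed Tcf7l2 -9.0 kb. Together with Tcf7l2 +45.3 kb, Tcf7l2 -29.6 kb and Axin2 -1.2 kb it made 4 of 147 sites (2.72%) listed in both E10.25 WT libraries and in none of the other 30, where 0.479% of all sites (485) were. All 4, like the 485, met the filter of at least 2 libraries only through the 2 E10.25 WT libraries, so these shares test nothing. The last 3 of the 4 sites were chosen after their values were seen. Their ranks were 25053 and 16637 at Tcf7l2 +45.3 kb, 28825 and 32263 at Tcf7l2 -29.6 kb, and 41413 and 32457 at Axin2 -1.2 kb. No other group had a site near these genes listed in all its libraries and in no other. Groups of 1 library could have none, since sites were listed in at least 2 libraries. Among all sites the share was 0.279% for E10.5 CKO and 0.002% to 0.096% for the larger groups, so finding none there says little. Of the promoters of Sox10 and Foxd3, which mark neural crest, 1 to 2 were listed in E10.25 WT, 0 to 2 in E10.25 CKO, 1 in E10.5 Posterior and 0 in the other groups. Their part in these sites was not tested.

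The experiments also differed in sites that no comparison covers. Tcf7l2 +1.3 kb and Lef1 -20.6 kb (2 of 147, 1.36%) were listed in at least 9 of the 18 cell population libraries and in none of the overexpression experiment, where 0.801% of all sites were. A site in Ror2 (chr13:53253340-53253839), Wnt5a -36.6 kb and Tcf7l2 -57.3, -51.9 and -31.7 kb (3.4%) were the reverse, against 2.08% of all sites. These sites were chosen after their values were seen. The first 2 also differed among the cell populations. Tcf7l2 +1.3 kb was listed in 0 of 3 E10.5 HL EYFP+ and 1 of 3 E10.5 FL EYFP+ libraries, and Lef1 -20.6 kb in 2 of 3 and 0 of 3. Both were listed in E9.5 HL, 4 of 5 E10.25 CKO and 2 of 2 E10.5 CKO libraries. Tcf7 -3.9 kb was listed in 2 of 2 E10.25 WT, 4 of 5 E10.25 CKO, 2 of 2 E10.5 CKO and all 6 EYFP+ libraries, in neither E9.5 HL nor the single posterior and anterior E10.5 libraries, and in 2 of 14 libraries of the overexpression experiment. The experiments differ in mouse lines, preparation, stages and cell populations, which cannot be told apart from the difference.

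Among 77 other Wnt pathway genes, 71 had a site tested in the overexpression experiment and 66 in the cell populations. Of 258 sites, anterior against posterior control called 1 higher (Sfrp1, which codes for a Wnt inhibitor, 26.9 kb upstream, difference of rank score 0.478, limma adjusted p = 0.0158) and 2 lower (Frzb, also an inhibitor, -0.424, limma adjusted p = 0.00963, and Prickle2, of the planar polarity pathway, -0.468, limma adjusted p = 0.033). With the embryo as a block none of these 3 passed (limma adjusted p = 0.083, 0.0665 and 0.182). The comparisons of Etv2OE with control called 0 of 258 on both sides. Of 152 sites in the cell populations, hindlimb against forelimb sorted cells called 0 higher and 1 lower, at Ror1, a receptor related to Ror2 (-0.401, limma adjusted p = 0.0407). With the pool as a block the Ror1 site did not pass (limma adjusted p = 0.5), but that fit called 0 of all sites and says nothing about this site in particular.

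E10.5 HL EYFP+ against CKO called 2 of the 152 higher, both at Frzb (0.473 and 0.566), and 8 lower, of which 3 were at Rspo2, an agonist of Wnt signalling (-0.691, -0.549 and -0.434). The others were at Fzd1, a Wnt receptor (-0.754), Tle4, a corepressor of TCF factors (-0.793), Dkk2 (-0.711), Ror1 (-0.52) and Wnt10a, an ectodermal ligand (-0.369). These shares, 1.32% and 5.26%, lie near the 2.31% and 4.93% of all sites. E10.25 WT against CKO called 1 higher, at Sfrp2 (0.376), and 2 lower, at the Tle4 (-0.4) and Ror1 (-0.604) sites that E10.5 CKO also had above the sorted cells, which is 0.66% and 1.32% of the 152 against 1.52% and 0.369% of all sites.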

How the data were processed

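Deposited summit lists of 32 ATAC-seq libraries were used. The authors aligned reads to mm10 with Bowtie2 2.2.4, kept unique alignments, removed duplicates, shifted reads for the Tn5 cut and ran MACS2 on every library separately. Its version was not given in the sources used. The deposited value of each summit is the −log10 of its q-value, which grows with depth. No read counts were used, so depth is unknown and an absent summit is not closed chromatin.

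Mitochondrial summits were dropped. Summits were ordered by relative rank and merged into non-overlapping 500 bp sites listed in at least 2 libraries, and placed by GENCODE mm10 genes. Sites were named if called, if listed in all of a group and none of the other, or if the most widely listed promoter or distal site of a gene. Members and lists were chosen with earlier results of these data known. Rank scores over equal list lengths were fitted by limma 3.58.1 in R 4.3.3 over all sites, with Benjamini-Hochberg adjustment at 0.05. All groups of an experiment entered a fit and shared 1 estimate of the spread. On simulated data limma gave the right sign to the shifted sites it called, but the share of false calls exceeded the nominal level.

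Anterior and posterior libraries come from the same embryos by the labels (correlation of deviations 0.00968 to 0.0787 for a shared embryo, -0.046 to 0.0288 otherwise), and HL and FL EYFP+ from the same pools (0.333 to 0.657, against -0.439 to 0.18). Alternatives were other list lengths, site widths, distances and filters, the paired fits, only the groups compared, and each library left out. A marker gene from the lists is not reported here.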

Additional observations from a re-analysis of the deposited data

Results flagged for a closer look

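Of 48 sets of values from groups of 4 or 5 libraries, 2 had a library far from the others of its group, and chance gives about 1 in 20. Control anterior replicate 4 had 11 summits near the 10 genes among its 10000 best-ranked, and each of the other control anterior libraries had 9. Control posterior replicate 1 ranked Tcf7l2 -18.5 kb 23532, and the others ranked it 26956 to 27622.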

How the results depend on the processing

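Of 173 alternatives over 15 results, 113 left the count of sites within 1.5 times its value and 60 did not, 29 of them among the 94 that left out 1 library. No called site changed direction. Counts of sites called by limma near the 10 genes moved as follows. Control anterior against posterior called 2, and 1 at 15000 summits, 1 at 20000, 1 with 200 bp sites, 1 with only the groups compared 0 with the embryo as a replicate block, and 0 in the Etv2OE libraries with that block, while whole lists called 3 others. EYFP+ hindlimb against CKO called 1 (2003 of all sites), and 6 at 25000 summits (3502 of all), 2 with whole lists (2977), 0 with only the groups compared (690) and 0 with a replicate block (0 of all), whose numbers are shared by label only. Hindlimb against forelimb called 0, and 1 at 25000 and 3 with whole lists; E10.25 WT against CKO 0, and 2 at 25000, a fit without CKO replicates 2 and 4, whose lists are shorter, and 3 with whole lists; Etv2OE posterior 0, and 2 with whole lists. The pairing fits by pool and by shared number, and the Etv2OE fit with the embryo as a block, called 0 of all sites, so they say nothing about these genes. Counts of sites in all libraries of a group and none of the other moved too. Etv2OE against control gave 1 on the anterior side, and 0 at 15000, at 20000 and with whole lists, and 2 on the posterior side, and 0, 0 and 1. Control anterior against posterior gave 1, and 0, 0 and 2. Hindlimb against forelimb gave 0, and 2 at 25000 and 1 with whole lists, EYFP+ against CKO 3, and 5 and 8, and E10.25 1, and 0 at 10000, 6 with whole lists and 2 without CKO replicates 2 and 4, an alternative chosen after seeing the data. The cause was not tested. Without each library in turn, limma called 0 to 3 for control anterior against posterior, 1 to 2 for EYFP+ against CKO, 0 to 0 for hindlimb against forelimb, and 0 to 1 for E10.25, for Etv2OE on each side and for its difference between sides. The presence counts ran from 1 to 3 (Etv2OE anterior), 2 to 5 (Etv2OE posterior), 1 to 3 (control anterior against posterior), 0 to 1 (hindlimb against forelimb), 2 to 5 (EYFP+ against CKO) and 0 to 2 (E10.25). At 25000 summits the E10.25 presence count was not run, because the short lists do not reach that length. List length depends on depth, which is unknown and limits what an absent summit can show.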
